A study of Arabidopsis thaliana with 8 samples.

Results

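The 6 genes described here, *HEMB1*, *HEME2*, *CHLM*, *PORB*, *AT1G74470*, and *LIL3:1*, act in chlorophyll synthesis in *Arabidopsis thaliana*. They were chosen by name, with earlier results of these data known. Each is read by 1 probe set of the Affymetrix ATH1 array, among 13270 nuclear genes that could be named on it. The signals come from 8 arrays of pooled whole seedlings, about 100 per sample. Wild type seedlings of the No-0 ecotype and seedlings of the *fhy3-4* mutant in the same ecotype, a mutant of the FHY3 transcription factor of phytochrome A signalling, were grown in cycles of white light and darkness, then moved to constant red light. Each genotype was sampled once at 24, 32, 40, and 48 h of red light, so that no time point has a biological replicate. The times 24 and 48 h share a circadian time, subjective dawn, while 32 h falls in the subjective day and 40 h in the subjective night. These arrays allow the genotypes to be compared in level and in their pattern over the day.

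Chlorophyll is built in plastids by enzymes that are encoded in the nucleus. 5-aminolevulinic acid is joined into a porphyrin ring, magnesium is inserted, a light-driven step reduces protochlorophyllide, and a phytyl tail made from geranylgeranyl is attached. Many genes of the pathway are known to respond to light and to the circadian clock, and free intermediates are harmful in light. FHY3 is known from other work to activate *HEMB1* directly.

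The signals of the whole set were similar between arrays, with array means of 402.4 to 438.8. The *fhy3-4* label was not checked against *FHY3* itself, which was not analysed here, as the gene table pairs no probe set with it. Whole seedlings hold green and root tissue, and fewer cells of a type cannot be told apart from less RNA per cell. Of the 7 green tissue markers listed, the gene table pairs 2 with a probe set. A further 8730 probe sets are not listed in it, so that unpaired markers may still be on the array. *LHCB4.1*, of the photosystem II antenna, had wild type signals of 8958.5 to 9957 and *fhy3* signals of 8471 to 9450.4. *RCA*, for Rubisco activase, read 8889 to 10871 and 10039 to 10443. Neither passed the test of mean level (adjusted p = 0.493 and 0.393 from limma). Of 7 root markers, *EXPA7*, an expansin of root hairs, was the only one paired. It read 18.5 to 52.8 in wild type and 78.7 to 153.7 in *fhy3* (log2 difference 1.99, SE 0.23, adjusted p = 0.0373 from limma). Its wild type signals were low, and that at 40 h was raised to the floor of 20.68 for the fit. None of the 5 seed markers was paired with a probe set.

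*HEMB1* (locus AT1G69740, chromosome 1) encodes 5-aminolevulinic acid dehydratase, which joins 5-aminolevulinic acid into porphobilinogen. Its signal in wild type was 1461, 1624, 1298, and 1313 in the order of the times (24, 32, 40, and 48 h of red light). In *fhy3* it was 1087, 977, 1048, and 1046. All 4 *fhy3* arrays lay below all 4 wild type arrays, and the gap was widest at 32 h, where wild type was at its highest and *fhy3* at its lowest.

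*HEME2* (AT2G40490, chromosome 2) encodes uroporphyrinogen decarboxylase, further along the porphyrin steps. Its signal in wild type was 1632.5, 1416.5, 1232, and 1414 at 24, 32, 40, and 48 h. In *fhy3* it was 1566, 1407, 1162, and 1359.7. Both genotypes were highest at 24 h and lowest at 40 h, and their ranges overlapped over most of their width.

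*CHLM* (AT4G25080, chromosome 4) encodes magnesium protoporphyrin IX methyltransferase, in the magnesium branch that leads to chlorophyll. In wild type its signal was 3618, 3561, 2977, and 3439 at the 4 times. In *fhy3* it was 2477, 2730.5, 2104, and 2349. As with *HEMB1*, the lowest wild type array lay above the highest *fhy3* array, but here both genotypes were lowest at 40 h.

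*PORB* (AT4G27440, chromosome 4) encodes protochlorophyllide oxidoreductase B, the form of the light-driven enzyme that is known to persist in green seedlings. Wild type signals were 5809, 7810.1, 7216, and 6998 at the 4 times. Those of *fhy3* were 6329, 7107, 7377, and 5972. The genotypes crossed, with *fhy3* higher at 24 and 40 h and lower at 32 and 48 h.

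*AT1G74470* (chromosome 1) encodes geranylgeranyl reductase, which makes the phytyl tail. Its signal in wild type was 6703, 6474, 6440.2, and 7554 at 24, 32, 40, and 48 h. In *fhy3* it was 6261, 6477, 5075, and 5239.8. The genotypes met at 32 h and parted at 40 and 48 h, and the *fhy3* array at 32 h was the only one to reach the wild type range.

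*LIL3:1* (AT4G17600, chromosome 4) encodes a light-harvesting-like protein that is known to bind geranylgeranyl reductase and keep it stable. Its wild type signals were 2164, 1324, 1968, and 2173 at the 4 times. Its *fhy3* signals were 2188, 1705, 1845, and 1792. Both genotypes were lowest at 32 h, with wild type below *fhy3* there and above it at 40 and 48 h.

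**Figure D1:**
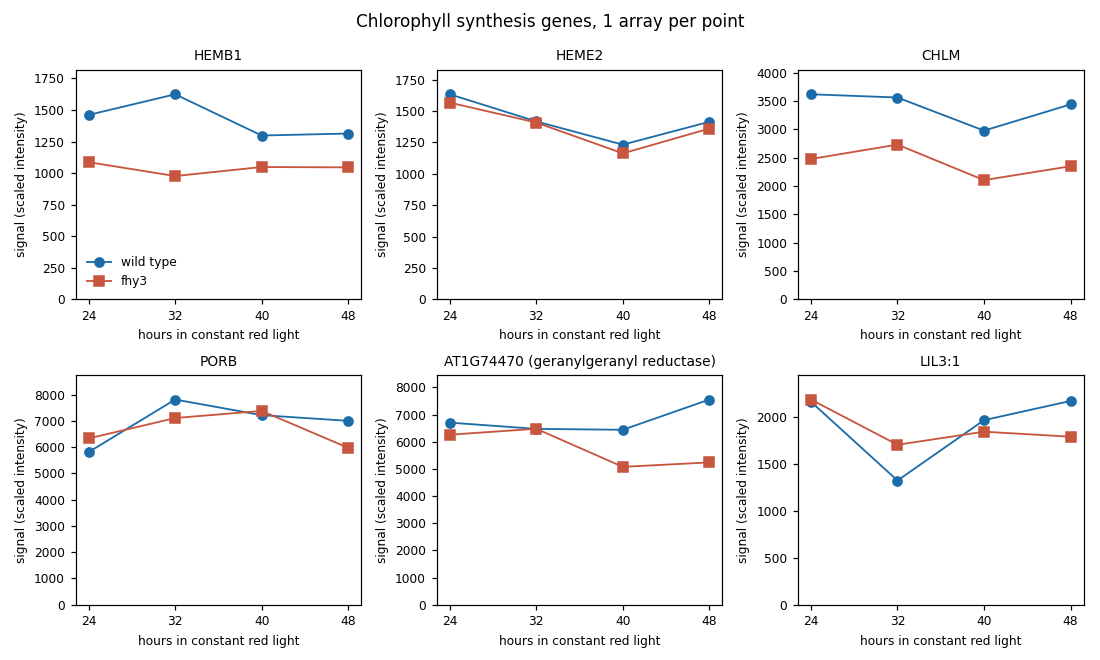
Signal of each of the 6 genes (scaled intensity, linear axis from 0) against hours in constant red light, with 1 array per point, wild type as circles and *fhy3* as squares. The 4 *fhy3* points of *HEMB1* (977 to 1087) and of *CHLM* (2104 to 2730.5) lie below every wild type point of the same gene, and the genotypes cross or overlap in the other 4 panels.

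Levels over the day were compared between genotypes with limma on log2 signals, in a fit whose error comes from the difference between 24 and 48 h within a genotype. The mean level weights the dawn, 32 h, and 40 h phases equally. The p-values of this fit rest on the spread between the 24 and 48 h arrays of a genotype, pooled in part over all probe sets. They do not measure the spread between independent cultures. Over all 17660 probe sets tested, 1106 passed at an adjusted p of 0.05, or 6.26%, with 654 higher in *fhy3* and 452 lower. After quantile normalization this split was 537 higher and 566 lower.

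*CHLM* was the single member that passed, lower in *fhy3* by 0.48 on the log2 scale (log2 difference −0.48, SE 0.07, 95% interval −0.67 to −0.28, adjusted p = 0.0459 from limma). This is 0.718 of the wild type level, with an interval of 0.628 to 0.821. *HEMB1* had a log2 difference of nearly the same size, −0.47 (SE 0.08, 95% interval −0.69 to −0.26), but its adjusted p of 0.0514 in limma missed the threshold, which it passed when no floor was set (0.0469). Its fitted level in *fhy3* was 0.72 of that in wild type. Thus 1 of 6 members was called lower, against 2.56% of all probe sets tested. The members were chosen with earlier results of these data known, so that this comparison is a description. The call of *CHLM* did not hold when time was fitted as a block (adjusted p = 0.0924), after quantile normalization (0.0548) or median scaling (0.0513), or without any single 24 or 48 h array (0.109 to 0.191, limma). With any 1 of those arrays left out, no probe set at all was called.

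The intervals of the other 4 members spanned 0. *AT1G74470* had a log2 difference of −0.22 (SE 0.10, 95% interval −0.51 to 0.07, adjusted p = 0.234 from limma). For *PORB* the difference was −0.05 (SE 0.10, 95% interval −0.32 to 0.22, adjusted p = 0.739 from limma). For *HEME2* it was also −0.05 (SE 0.10, 95% interval −0.33 to 0.23, adjusted p = 0.755 from limma), and for *LIL3:1* 0.05 (SE 0.10, 95% interval −0.23 to 0.32, adjusted p = 0.772 from limma). As levels relative to wild type, these last 3 intervals run from 0.797 to 1.25 in all. They are not adjusted for the number of probe sets and are not a limit of detection. *HEMB1*, at 0.72 of the wild type level and with a smaller SE of 0.08, was not called. The median over the 6 members was −0.14, beside 0.02 over all probe sets tested, and 5 of 6 estimates were negative. Negative estimates were not counted over all probe sets, so that this count has no background beside it.

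**Figure D2:**
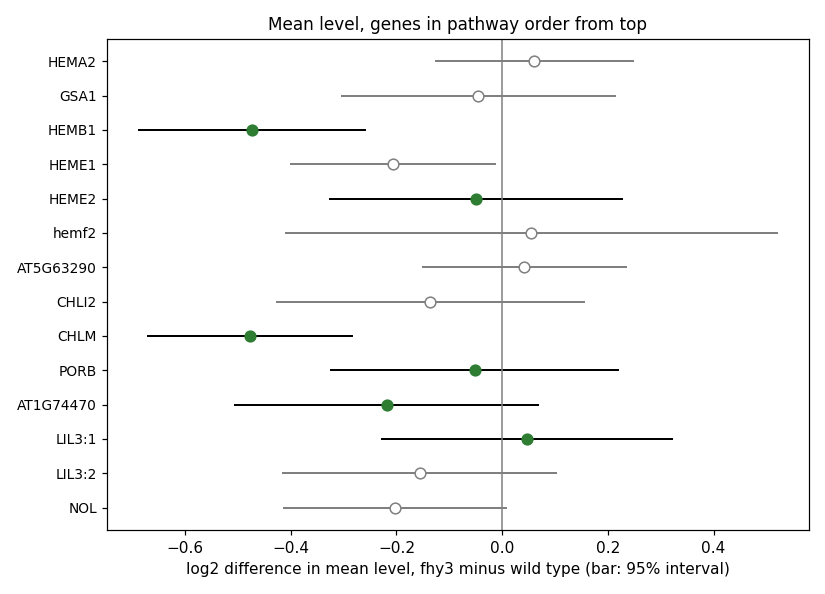
Log2 difference in mean level, *fhy3* minus wild type, with bars for 95% intervals, for the 6 members (filled) and 8 other genes of the pathway (open), in pathway order from the top. *HEMB1* (−0.47) and *CHLM* (−0.48) lie farthest from 0, and among the rest only the bar of *HEME1* (−0.40 to −0.01) does not cross it.

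The difference between genotypes was then followed from time to time. The *fhy3* signal of *CHLM* was 0.685, 0.767, 0.707, and 0.683 of that in wild type at 24, 32, 40, and 48 h. For *HEMB1* it was 0.744, 0.601, 0.808, and 0.796. The ratio of *CHLM* varied less over these arrays, with an SD of 0.08 for its 4 log2 differences against 0.20 for *HEMB1*. Each difference is of 1 array against 1. The median residual SD over all probe sets was 0.129, but this is for the signal of 1 array. A difference between arrays spreads more widely, so that 0.129 is not a like measure for these SDs. Neither gene passed the test of a difference in rhythm (adjusted p = 0.766 and 0.425 in limma), and the contrast between them was not tested.

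*HEME2* had the steadiest ratio of the members, 0.944 to 0.994 (SD 0.03 of the 4 log2 differences), and was slightly lower in *fhy3* at each time. The ratio of *PORB* ranged from 0.853 at 48 h to 1.089 at 24 h. That of *AT1G74470* was 0.934, 1.0, 0.788, and 0.694, so that the ratios of the 2 days at dawn lay well apart. The ratio of *LIL3:1* was above 1 at 24 and 32 h (1.011 and 1.288) and below it at 40 and 48 h (0.938 and 0.825).

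Over 4 times, 3 of 6 members were lower in *fhy3* at each one (*HEMB1*, *HEME2*, and *CHLM*), as were 14.2% of all probe sets tested. None was higher at each one. In 2 of 6, *HEMB1* and *CHLM*, all *fhy3* arrays were below all wild type arrays, against 5.23% of probe sets. As the choice of members was made with earlier results known, these shares do not test whether the pathway differs from the background. An exact sign-flip test over the 4 pairs of arrays of the same time gave a two-sided p of 0.125 for each of *HEMB1*, *HEME2*, and *CHLM*, which is the smallest that 4 pairs allow.

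**Figure D3:**
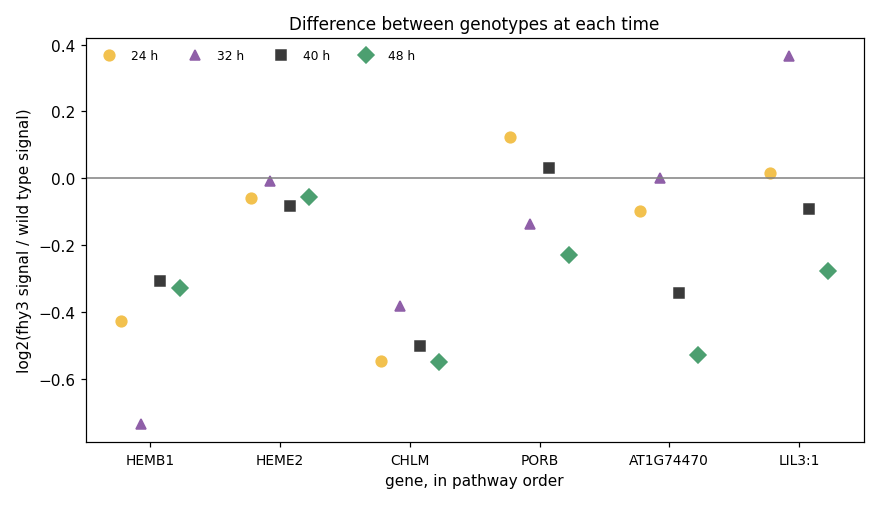
Log2 of the *fhy3* signal over the wild type signal for each member, in pathway order, with 1 marker per time (24, 32, 40, and 48 h) and a grey line at 0. The markers of *HEMB1* (−0.73 to −0.31) and *CHLM* (−0.55 to −0.38) all lie well below the line, those of *HEME2* just below it, and those of *PORB* and *LIL3:1* on both sides.

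No member passed the test at a single phase, where few probe sets passed at all. At dawn, with 24 and 48 h together, *CHLM* had a log2 difference of −0.55 (SE 0.09, adjusted p = 0.182) and *HEMB1* of −0.38 (SE 0.10, adjusted p = 0.261). Here 0.0736% of all probe sets passed. At 32 h the difference was −0.73 for *HEMB1* (SE 0.15, adjusted p = 0.0904) and −0.38 for *CHLM* (SE 0.13, adjusted p = 0.175), and 0% of probe sets passed, 4744 of them at an unadjusted p under 0.05 in limma. At 40 h *CHLM* was at −0.50 (SE 0.13, adjusted p = 0.164) and *HEMB1* at −0.31 (SE 0.15, adjusted p = 0.313), with 0.0227% of probe sets called. The unadjusted p was under 0.05 for *HEMB1* and *CHLM* at dawn and at 32 h, and for *CHLM* at 40 h. Over all probe sets it was so for 15.2% at dawn, 26.9% at 32 h, and 21.7% at 40 h, so that the 1 of 6 members at 40 h is no larger a share than the background.

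For *AT1G74470* the dawn difference was −0.31 (SE 0.14, adjusted p = 0.391 in limma), and it rested mostly on 48 h, with −0.10 at 24 h alone and −0.53 at 48 h alone. Its signal rose by 0.17 on the log2 scale from 24 to 48 h in wild type, and was lower by 0.26 at 48 h in *fhy3*. The median absolute difference between these arrays over all probe sets tested was 0.16 in wild type and 0.14 in *fhy3*. *LIL3:1* at 32 h had the largest upward difference of any member at any phase, 0.365 (SE 0.19, adjusted p = 0.297 in limma).

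The pattern over the day was examined next, since the pathway is known to be under clock control. The members changed by modest factors, with highest over lowest signals of 1.17 to 1.64 in wild type and 1.11 to 1.35 in *fhy3*. Their median was 1.29 in wild type and 1.28 in *fhy3*, beside 1.44 and 1.35 over all probe sets tested. *LIL3:1* had the widest range of the members in wild type, 1.64, but 1.28 in *fhy3*. *HEMB1* had the narrowest in *fhy3*, 1.11, and 1.25 in wild type.

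The criteria stated in the methods of the study call a gene rhythmic when its 4 signals follow 1 of 24 sine waves of different phase with p under 0.01, and change at least as a wave of 1.5-fold range would. The p is that of the best of 24 waves, and 24 and 48 h are the only repeat of a phase. It is therefore not an error rate of 0.01, and a high r over 4 points is weak evidence of a rhythm. A large absolute change could stand in for the second condition, but 0 probe sets reached the one stated, so that it played no part here. Phase is the time of the fitted peak in hours after subjective dawn. By these criteria 1 of 6 members was rhythmic in wild type, where 12.5% of probe sets were. It was *LIL3:1*, with phase 21 (r = 0.999 over 4 points) and a ratio of 1.638 where 1.415 was needed. In *fhy3* no member was rhythmic, and 10.7% of probe sets were. These shares are of the deposited red light signals. The study normalised its signals jointly with arrays from white light (not analysed here). Whether the deposited values come from that step is not known. The shares given here are not the study's counts, and the share for wild type is well below the one that the paper reports. The source of that gap was not tested. *LIL3:1* in *fhy3* had a best phase of 22 with r = 0.644 and a ratio of 1.167.

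A rhythm met in 1 genotype alone does not show a difference, which was therefore tested itself. In limma the fitted amplitude of *LIL3:1* was 0.44 in wild type (log2, adjusted p = 0.141) and 0.12 in *fhy3* (adjusted p = 0.655), and the test of a difference in rhythm gave an adjusted p of 0.433. Its 32 h signal was lower than dawn by 0.71 on the log2 scale in wild type (log2 difference −0.71, SE 0.16, adjusted p = 0.0951 in limma) and by 0.22 in *fhy3* (−0.22, SE 0.16, adjusted p = 0.745). None of these passed.

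The remaining members met the correlation criterion in neither genotype with the signals as deposited. *CHLM* came near it in both, with phase 4 in wild type (r = 0.966) and phase 6 in *fhy3* (r = 0.98), but with ratios of 1.185 and 1.298 where 1.375 and 1.419 were needed. After quantile normalization its r was 0.914 in wild type and 0.989 in *fhy3*. *HEME2* had phase 3 in both genotypes (r = 0.834 and 0.859). *PORB* fitted best at phase 10 in wild type (r = 0.813) and 13 in *fhy3* (r = 0.974), with small changes of 1.22 and 1.199. After quantile normalization it fitted phase 8 in *fhy3* with r = 0.994, enough for the correlation, but was still not called rhythmic.

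The best phase of *HEMB1* was 7 in wild type (r = 0.919) and 21 in *fhy3* (r = 0.928), since its 32 h array was the highest in one genotype and the lowest in the other. These phases depend on scaling, since after quantile normalization that of *fhy3* was 2 (r = 0.721) and that of wild type still 7. The test of that difference in rhythm gave an adjusted p of 0.425 in limma. For *AT1G74470* the best phases were 0 and 6 (r = 0.745 and 0.808). Phases of members that do not meet the criteria are best fits to 4 points and carry no error.

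In limma, no member passed the test of rhythm in wild type (0.00566% of probe sets did), in *fhy3* (0.017%), or of a difference between them (0%, with 3266 probe sets at an unadjusted p under 0.05). Nor did any pass for 32 h against dawn in wild type (0%, 4946 at an unadjusted p under 0.05) or *fhy3* (0%, 1477), or for 40 h against dawn in wild type (0.017%) or *fhy3* (0.736%). An unadjusted p under 0.05 was reached by *LIL3:1* alone, for 32 h against dawn and for rhythm, both in wild type. Over all probe sets, 28% reached it for the first and 28.1% for the second, so that 1 of 6 members is below the background.

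Both *HEME2* and *CHLM* were lowest at 40 h in both genotypes, as was *AT1G74470*, so that 3 of 6 members had their lowest array there. Of all probe sets tested, 12.9% were lowest at 40 h in both genotypes. The differences from dawn at 40 h were −0.30 and −0.33 for *HEME2* (SE 0.16 each) and −0.24 and −0.20 for *CHLM* (SE 0.11 each), in wild type and *fhy3*. For *AT1G74470* they were −0.14 and −0.17 (SE 0.17 each). No adjusted p for these was under 0.308 in limma.

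Of 53 further genes listed for the pathway and its branches, 10 were paired with a probe set and 8 were tested. The list was written with earlier results of these data known. *HEMA3* and *hemb2*, relatives of glutamyl-tRNA reductase and of *HEMB1*, were too low to test. Their signals were 7.38 to 22.7 and 13.2 to 24.4, near or under the floor set on signals. No gene listed under the haem and bilin branch, chlorophyll breakdown, the flux regulators, or the transcription factors was paired with a probe set.

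None of the 8 passed the test of mean level in either direction. The median estimate was −0.09, and 5 of 8 were negative, again with no count over all probe sets beside it. *HEME1*, the second uroporphyrinogen decarboxylase gene, had the lowest estimate. Its wild type signals were 1198, 1111, 755, and 1118, and its *fhy3* signals 1049.5, 956, 637, and 1027. It was lower in *fhy3* at each time, though the ranges overlap because both genotypes fell at 40 h (−0.21 for the mean level on the log2 scale, with SE 0.07 and an adjusted p of 0.141 in limma).

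*NOL*, for a chlorophyll *b* reductase and listed with chlorophyll *a* and *b*, followed with −0.20 (SE 0.08, adjusted p = 0.165 from limma). *LIL3:2*, the relative of *LIL3:1*, had −0.16, and *CHLI2*, of the magnesium chelatase, −0.14. At the other end were *HEMA2*, for glutamyl-tRNA reductase, with 0.06, and *hemf2*, for coproporphyrinogen oxidase, with 0.05. *AT5G63290*, listed with the porphyrin steps, had 0.04, and *GSA1*, which makes 5-aminolevulinic acid, −0.04. Adjusted p-values of these 6 lay between 0.315 and 0.845 in limma.

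By the criteria of the methods, *HEME1* was rhythmic in *fhy3* at phase 3 (r = 0.997) and *HEMA2* at phase 16 (r = 0.996), with ratios of 1.63 and 1.661. Of all probe sets tested, 10.7% were rhythmic in *fhy3*. In wild type *HEME1* changed by as much as was needed (1.534) but missed the correlation (r = 0.98), while *HEMA2* met the correlation (r = 0.991) and not the change (1.211). Neither gene passed the test of rhythm in *fhy3* in limma (adjusted p = 0.148 for *HEME1* and 0.123 for *HEMA2*). Nor did either pass the test of a difference in rhythm between genotypes (adjusted p = 0.909 and 0.309 in limma). *HEMA2* was the only one of the 14 tested genes of the pathway to be highest at 40 h in both genotypes.

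The paralogues of the 2 members whose relative was paired with a probe set and tested could be set side by side. *HEME1* and *HEME2* both were highest at 24 h and lowest at 40 h in both genotypes, and their log2 signals had a Pearson r of 0.89 over the 8 arrays. *LIL3:2* read 3753, 2925, 3722, and 3547 in wild type, with its lowest array at 32 h as for *LIL3:1*. In *fhy3* it read 3089, 3045, 3319, and 2609, lowest at 48 h. The r of *LIL3:1* with *LIL3:2* was 0.56. These values are descriptions over arrays that share genotype and time.

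**Figure D4:**
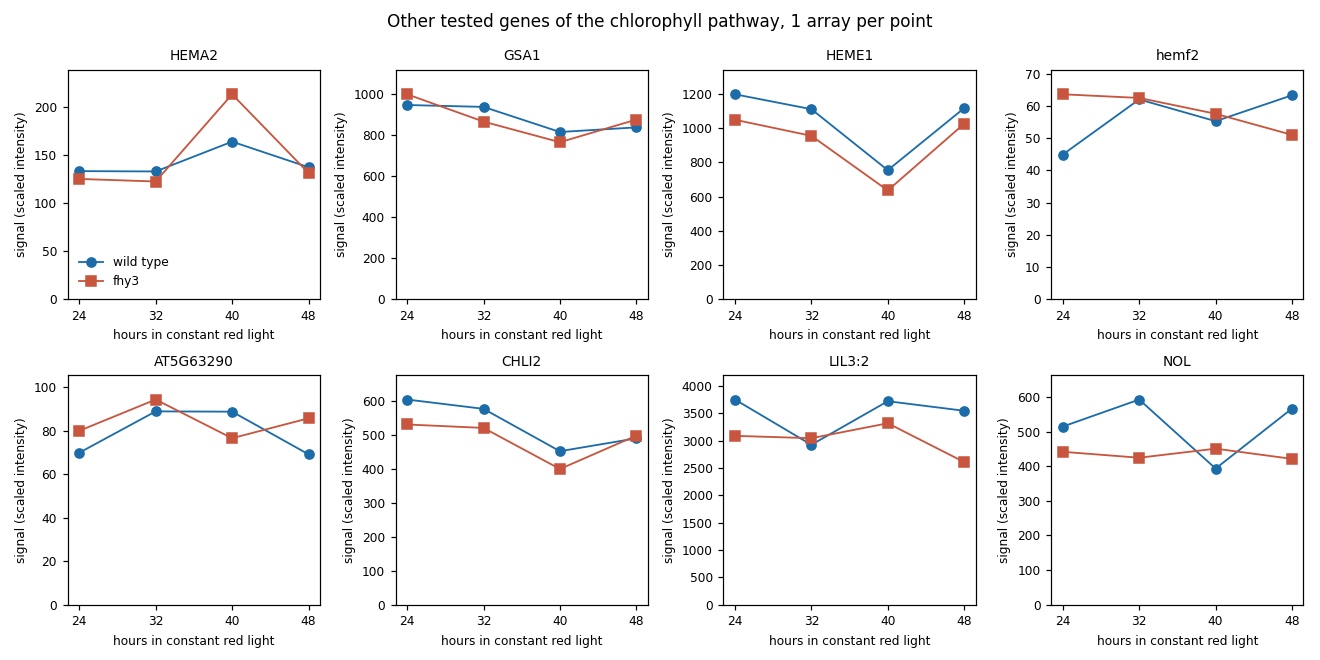
Signal of the 8 other tested genes of the pathway (scaled intensity, linear axis from 0) against hours in constant red light, with 1 array per point, wild type as circles and *fhy3* as squares. *HEME1* and *CHLI2* are lowest at 40 h in both genotypes, *HEMA2* is highest there (164 and 213), and *LIL3:2* is lowest at 32 h in wild type alone.

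Among the members themselves, *HEMB1* and *CHLM* had a Pearson r of 0.86 over the log2 signals of the 8 arrays, and *CHLM* and *AT1G74470* of 0.84. The lowest values, −0.59, were those of *PORB* with *HEME2* and with *LIL3:1*. A gene that differs between genotypes gains much of its r with another such gene from that difference.

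Named genes with the most similar signals over the 8 arrays were listed for each member by Pearson r, as a description. For *HEMB1* they were *AT4G08330* (r = 0.983) and *AT2G45540* (0.979), and for *CHLM* *AT2G46910* (0.991) and *AT1G66100* (0.987). *AT2G46910* read 368 to 423 in wild type and 299 to 336 in *fhy3*, again with no overlap. *AT1G66100* read 153 to 575 in wild type and 14.3 to 150.2 in *fhy3*, and shared with *CHLM* its lowest array at 40 h in both genotypes.

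For *HEME2* the nearest were *AT4G18060* (r = 0.967) and *AT2G27260* (0.966), and for *PORB* *AT3G26480* (0.958) and *AT3G08020* (0.956). For *AT1G74470* they were *AT1G78180* (0.924) and *AT1G28710* (0.923), and for *LIL3:1* *AT2G39280* (0.992) and *AT2G01220* (0.978). *AT2G39280* dropped to 32.4 at 32 h in wild type, from 58.6 to 63.4 at the other times, and read 45.6 to 65.2 in *fhy3*. None of these 12 genes was on the pathway list.

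The paired green tissue markers differed less in mean level than *CHLM* and *HEMB1*. *LHCB4.1* was lower in *fhy3* at each of the 4 times, as were 14.2% of all probe sets tested. *RCA* was lower at 2 of the 4 times. The log2 differences in mean level were −0.07 for *LHCB4.1* (SE 0.07) and 0.09 for *RCA* (SE 0.06), while that of the root marker *EXPA7* was 1.99. The part of tissue makeup in the differences of the members was not tested.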

How the data were processed

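The values used were the deposited probe set intensity signals, linear and scaled between arrays by the authors. The submitters' notes name MAS5 without a version, the paper's methods name D-chip, and it is not known here which of them gave the values. The members and gene lists were chosen with earlier results of these data known. Probe sets of control, organelle, or several genes were left out, and a set was tested where its mean in a genotype reached 5% of the mean of all sets (413.5), which left 17660, of which 7597 are unnamed here. Signals under 20.68 were set to that value.

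Log2 signals were fitted with limma 3.58.1 (R 4.3.3), with separate means and 24 h cosine and sine terms in the genotypes (6 coefficients, 2 residual degrees of freedom, 2.01 prior), and Benjamini-Hochberg adjustment over all sets at 0.05. Rhythm was also called by the criteria of the methods. Both procedures were tested on simulated data. Precision is limited by the number of arrays, 8.

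Named genes were the members, listed genes called in any fit, the 4 highest and 4 lowest of the list in mean level, and the 2 named genes of highest r with each member. Genes with several probe sets were read from the brightest. Alternatives concerned scaling, floor, filter, time as a block, and arrays left out. No coordinates, sequences, or promoter motifs were used, since no build is named and no genome was at hand.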

Additional observations from a re-analysis of the deposited data

Results flagged for a closer look

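In *HEMA2*, for glutamyl-tRNA reductase, 1 of 4 arrays stood far from the rest in each genotype, the 40 h array both times. Its signal was 164 at 40 h in wild type, against 133 to 138 at the other times, a gap of 0.859 of the whole range. In *fhy3* it was 213 against 123 to 132, a gap of 0.903 of the range. The 4 arrays are different times and not replicates. These were 2 of 28 groups of 4 arrays examined over the 14 tested genes of the pathway, and about 1 in 20 such groups passes by chance.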

How the results depend on the processing

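The mean level difference of *CHLM* stayed negative in every alternative, but was not called with time as a block (−0.50), after quantile normalization (−0.44) or median scaling (−0.50), or with an array or time left out (−0.53 to −0.46, adjusted p 0.109 to 0.272). *HEMB1* stayed negative throughout and passed without a floor (−0.47, adjusted p = 0.0469 in limma), and otherwise had adjusted p-values up to 0.303. With arrays or times left out, *PORB* ranged from −0.11 to 0.0064 and *LIL3:1* from −0.12 to 0.10, and *LIL3:1* was −0.12 without 32 h. Members called numbered 0 with time as a block, quantile normalization, or median scaling, 2 without a floor, and 0 with any array or time left out. Probe sets called numbered 108 with time as a block, 579 among named sets alone (10063 tested), and 0 to 11 with an array or time left out. Fits with time as a block have 3 residual degrees of freedom, and the causes of these shifts were not tested beyond the loss of arrays or sets. Signs that turned at single phases belonged to differences near 0. With quantile normalization *PORB* was 0.067 at dawn and −0.13 at 40 h and *HEME2* 0.067 at 32 h, and with median scaling *PORB* was −0.0026 at 40 h and *AT1G74470* −0.036 at 32 h. The rhythm calls of the members kept their side of the threshold in the alternatives tried, but quantile normalization moved best phases in *fhy3*, from 21 to 2 for *HEMB1*, 13 to 8 for *PORB*, and 22 to 1 for *LIL3:1*. Arrays could be paired by time alone, as in the fit with time as a block, because every array carries replicate number 1. The depth of a signal over background was not given, and 1 array per time limits every value.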
